A study of Mus musculus with 8 samples.

Results

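The transcripts of presynaptic vesicle release described here were 43 genes for synaptic vesicle and release proteins, chosen by name from a list without the neurexins, among the 22609 genes of the deposited table. All 43 were found by symbol, and all 43 passed the minimum mean value of 1 and were among the 14704 genes tested. The tissue was the anterior cingulate part of the medial prefrontal cortex, from the left and right hemisphere, of B6.SJL mice aged 3 months, taken 1 h after a single training session. For the 4 contextual fear conditioning samples (called conditioned below), 3 min in a chamber were followed by 2 unsignalled foot shocks of 0.8 mA, each 2 s long and 30 s apart, and by 15 s more in the chamber. The 4 context control samples came from mice treated in the same way except for the shock, so both groups had been in the chamber, and no group of untrained mice was compared. The series design text calls the samples biological replicates, and whether a sample is 1 mouse or a pool is not given in the sources used here.

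Neurons release transmitter by fusing synaptic vesicles with the plasma membrane. The vesicle protein synaptobrevin (VAMP) pairs with syntaxin and SNAP-25 in the membrane to form the SNARE complex, synaptotagmins sense the calcium that triggers fusion, and complexins, Munc13 proteins and the active zone scaffolds set which vesicles are ready. NSF and its SNAP adaptors then take the spent SNARE complexes apart, and synapsins hold a reserve of vesicles near the release site.

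The samples held 1992452 to 3565356 gene reads. Values are reads per gene divided by 1 factor for each sample, not corrected for length, so a level is compared between genes only per kb of transcript. Changes are on the log2(value + 1) scale, conditioned minus control, from limma across all tested genes, with Benjamini-Hochberg adjusted p and 95% confidence intervals. Markers of cortical excitatory neurons were abundant, with Camk2a at 3953 to 6607 in conditioned samples and 4582 to 5937 in controls. Of 6 markers of cerebellar granule cells, Fat2 was listed at 0 in all 8 samples, Gabra6 was above 0 only in conditioned replicate 3 at 2.73, and Cbln3 was 0 to 4.14 in conditioned samples and 0 to 1.66 in controls. The other 3 were present, with Zic1 at 38.3 to 69.0 in conditioned samples and 53.7 to 98.8 in controls, Zic2 at 19.1 to 48.0 in conditioned samples and 33.8 to 76.6 in controls, and Cbln1 at 21.2 to 71.1 in conditioned samples and 23.3 to 62.8 in controls. In such bulk tissue, fewer cells of a type and less RNA per cell cannot be told apart.

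Of the 43 genes, RefSeq (GRCm38.p6) gave a promoter window for 31. The 250 bases before each start were searched on both strands for the cAMP response element TGACGTCA, the site of the activity-regulated factor CREB, and for the left arm TTCAGCACC and the right arm of RE1, the element through which the repressor REST keeps neuronal genes silent in other cells. TGACGTCA was in 1.55%, TTCAGCACC in 0.301% and the right arm in 0.0974% of all 32851 windows of this length. Among the 31 genes, Syn1 alone held a motif, and it held both TGACGTCA and TTCAGCACC. Its window is shown because synapsin I is the classic neuron-restricted release gene and the only one of the 31 with any of these motifs. It lies upstream of the RefSeq start on the minus strand, at chrX:20920919-20921168. The GENCODE vM21 annotation lets the gene begin at 20921004, inside this window. Capitals mark the motifs, TTCAGCACC at 232 to 224 bases and TGACGTCA at 159 to 152 bases before the RefSeq start.
Syn1: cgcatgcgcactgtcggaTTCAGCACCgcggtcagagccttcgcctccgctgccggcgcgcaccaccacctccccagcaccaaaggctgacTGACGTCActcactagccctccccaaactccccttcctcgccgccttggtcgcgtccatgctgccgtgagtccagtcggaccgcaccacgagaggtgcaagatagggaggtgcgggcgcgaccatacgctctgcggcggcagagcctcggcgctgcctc
A match describes the letters of the window only and does not show that a factor binds there.

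No release gene passed the test after fear conditioning, with 0 of the 43 called at an adjusted p under 0.05 by limma, where 0 of all 14704 genes (0.0%) were called, and 0 by edgeR or DESeq2 on recovered reads. The adjusted p was 0.9998 for each of the 43. At an unadjusted p under 0.05 there was 1 of 43 (2.33%) by limma, beside 2.7% of all tested genes, and 0 of 43 by edgeR and by DESeq2. Single libraries moved that limma count: it was 5 of 43 without conditioned replicate 4, where 802 of the 14704 genes passed the same unadjusted threshold, and 0 of 43 without conditioned replicate 1, conditioned replicate 3, control replicate 1 or control replicate 3. In 0 of the 43 genes did every conditioned sample lie on one side of every control, which 1.92% of all tested genes did.

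As a description, 35 of the 43 genes had a log2 change above 0 and 8 below, beside 51.8% above 0 among all tested genes. The median change was 0.13, against 0.01 over all tested genes. The 95% interval of a single gene reached 0.41 to each side of its change in the median. The median deviation of the 43 genes varied between samples of a group with an SD of 0.17. That SD describes single samples and is not the error of a difference between group means, so the 2 are not compared. The median change was 0.06 without context control replicate 3, where 28 of 43 lay above 0, 0.08 without conditioned replicate 1, 0.08 without conditioned replicate 2 and 0.21 without conditioned replicate 4. With quantile normalization 30 of 43 lay above 0 and the median was 0.03. Of the 43 intervals, 40 lay within 1 log2 unit of 0 on both sides, and the exceptions were Sv2c, Syt3 and Rims3.

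**Figure D1:**
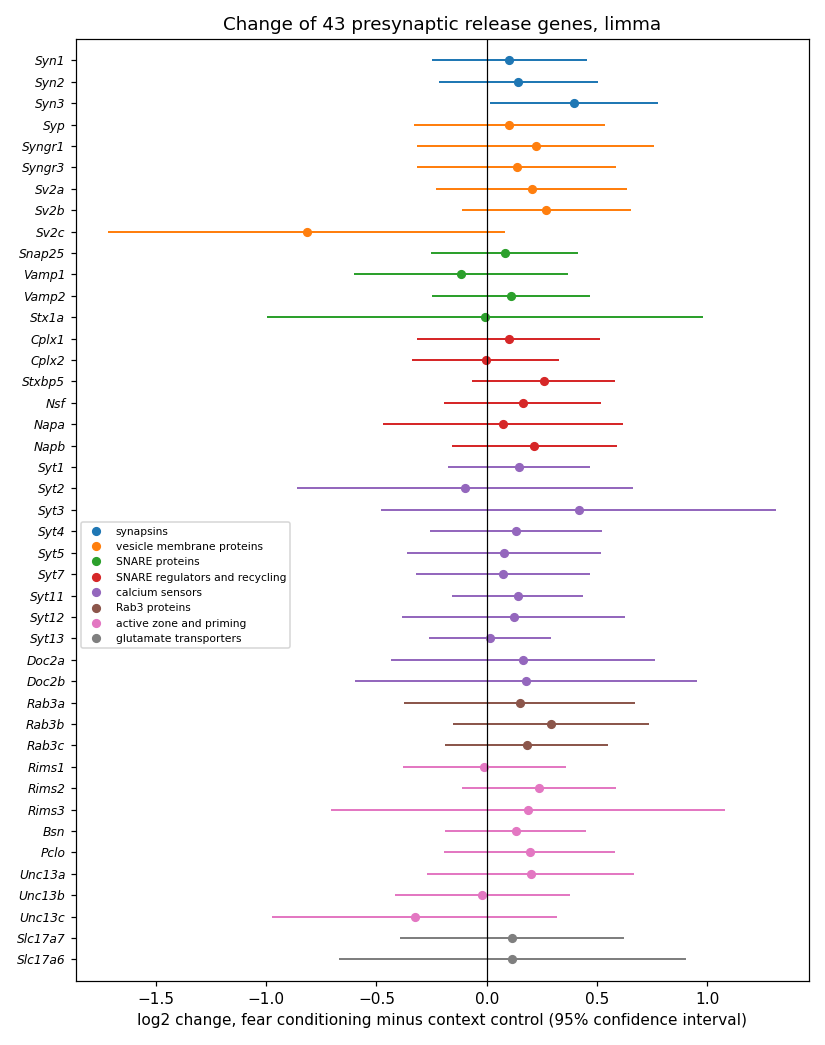
Log2 change of each of the 43 genes, conditioned minus control (points), with 95% confidence intervals (lines), coloured by role, from limma with 4 samples per group. All but 1 of the intervals cross 0; the exception is Syn3, whose adjusted p was 0.9998.

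The synapsins bind vesicles to each other and to actin. In conditioned samples Syn3 stood at 283, 247, 277 and 260.0, and in controls it stood at 204, 266, 184 and 167. The 3 lowest values were controls and the conditioned samples were close together, but control replicate 2 lay among them, so the groups overlapped. Syn3 averaged 267 ± 16.6 in conditioned samples and 205 ± 43.2 in controls (SD, n = 4 each), a change of 0.40 (95% interval 0.02 to 0.77, unadjusted p = 0.0407), the smallest p of the 43. On the annotated genome (GENCODE vM21) 14.1% of the exon bases of Syn3 are shared with Timp3, a metalloproteinase inhibitor gene on the opposite strand, and whether the counting used strand is not given in the sources used here. Timp3 itself averaged 619 ± 188 in conditioned samples and 749 ± 232 in controls (SD, n = 4 each; log2 change -0.28). In all, 15 of the 43 genes share exon bases with another annotated gene. The shared part runs from 0.27% of the exon bases of Syn1 to 39.4% of those of Doc2a. The share of all genes with such an overlap was not counted.
For Syn1 the conditioned samples gave 1852, 1760.2, 2223 and 1759, and the controls gave 1442, 1782, 1623 and 2301. Syn2 read 2801, 2670.1, 3273 and 2401 in the conditioned samples and 2099.5, 2519, 2245 and 3329.8 in the controls. The abundant synapsins both had their lowest value in control replicate 1 and their highest in control replicate 4, so the controls spanned the conditioned samples. Their changes were 0.10 for Syn1 (interval -0.24 to 0.45) and 0.14 for Syn2 (interval -0.21 to 0.50).

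Among proteins of the vesicle membrane, the SV2 glycoproteins Sv2c and Sv2b had the lowest and the highest log2 change, and neither passed. Sv2c values were 11.0, 7.96, 13.7 and 22.1 in conditioned replicates 1 to 4, against 16.6, 25.5, 39.3 and 17.7 in control replicates 1 to 4. The 3 lowest values were conditioned samples and the 2 highest were controls, with conditioned replicate 4 among the controls. Sv2c, the scarcest of the 43 per kb, had the log2 change farthest from 0, -0.82 (interval -1.71 to 0.08, unadjusted p = 0.0699), and its lowest sample rested on 6 reads. In conditioned samples Sv2b stood at 3164, 2917, 4189 and 3291, and in controls it stood at 2247, 2701, 2619.7 and 3774. The 3 lowest values were controls and the highest was a conditioned sample, but control replicate 4 was second. Its change was 0.27 (interval -0.11 to 0.65, unadjusted p = 0.146). For Syp the conditioned samples gave 2869.6, 2804, 2678 and 1761, and the controls gave 1949, 2730.3, 1843 and 2905. Synaptophysin, a membrane-spanning protein used as a marker of vesicles, had low values in conditioned replicate 4 and control replicates 1 and 3, and its change was 0.10 (interval -0.33 to 0.53). The other members were Sv2a at 1778 ± 429 in conditioned samples and 1521 ± 263 in controls (SD, n = 4 each), Syngr1, a synaptogyrin, at 2125 ± 606 in conditioned samples and 1803 ± 474 in controls (SD, n = 4 each), and Syngr3 at 564 ± 136 in conditioned samples and 509 ± 101 in controls (SD, n = 4 each). All 3 overlapped between the groups and had changes of 0.20, 0.22 and 0.14.

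The SNARE proteins form the fusion complex itself, and 2 of the 4 genes lay above 0 and 2 below, with none past the test. Stx1a read 831, 968, 388 and 199 in the conditioned samples and 697, 795, 281 and 409 in the controls. Syntaxin 1A was high in replicates 1 and 2 of both groups and low in replicates 3 and 4 of both groups. The highest and the lowest value both came from conditioned samples. Stx1a averaged 597 ± 363 in conditioned samples and 545 ± 241 in controls (SD, n = 4 each). Its log2 change was -0.0092 with an interval of -0.99 to 0.98, and it was 0.11 in edgeR and 0.12 in DESeq2. SNAP-25 and synaptobrevin 2 are the main partners of syntaxin in forebrain neurons, while synaptobrevin 1 is strong in fast-spiking interneurons and in the hindbrain. Snap25 values were 3298, 3238, 3128 and 2525 in conditioned replicates 1 to 4, against 2377, 3235, 2621 and 3338 in control replicates 1 to 4. In conditioned samples Vamp2 stood at 2785, 2682, 2929.6 and 2124, and in controls it stood at 1959, 2652, 2195 and 2998. For Vamp1 the conditioned samples gave 249.95, 225, 275 and 311, and the controls gave 355, 283, 365 and 180.3. For each of these genes the groups overlapped, and for Vamp1 the 2 highest values and the lowest were controls. The changes were 0.08 for Snap25 (interval -0.25 to 0.41), 0.11 for Vamp2 (interval -0.24 to 0.46) and -0.12 for Vamp1 (interval -0.60 to 0.37).

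Complexins clamp and promote fusion of the assembled SNARE complex. Cplx1 read 1367, 1411, 1100.0 and 839 in the conditioned samples and 1123, 1369.9, 959.9 and 913 in the controls. Cplx2 values were 2752, 3089, 2274 and 2073 in conditioned replicates 1 to 4, against 2544, 2889, 2277 and 2432 in control replicates 1 to 4. In both genes every sample numbered 1 or 2 lay above every sample numbered 3 or 4, whatever its group. The changes were 0.10 for Cplx1 (interval -0.31 to 0.51) and -0.0054 for Cplx2 (interval -0.34 to 0.33). In conditioned samples Stxbp5 stood at 702, 686, 880.0 and 955, and in controls it stood at 640.3, 685, 727 and 619.6. Stxbp5 encodes tomosyn, which holds syntaxin away from synaptobrevin, and its 2 highest values were conditioned samples and its 3 lowest were controls, with a change of 0.26 (interval -0.06 to 0.58, unadjusted p = 0.105). For Nsf the conditioned samples gave 3237, 3237, 3382 and 2464, and the controls gave 2352, 2947, 2354 and 3404. NSF is the ATPase that takes SNARE complexes apart. Conditioned replicate 4 stood well below the other conditioned samples, and the change over all samples was 0.16 (interval -0.19 to 0.51). The adaptors that bring NSF to the complexes were Napa at 645 ± 218 in conditioned samples and 596 ± 132 in controls (SD, n = 4 each), a change of 0.07, and Napb at 2463 ± 418 in conditioned samples and 2127 ± 413 in controls (SD, n = 4 each), a change of 0.22.

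Synaptotagmins and Doc2 proteins are C2-domain proteins, several of which sense calcium. Of their 11 genes, 10 lay above 0 and 1 below, and none passed. Syt1 read 3938, 3719, 4414 and 3792 in the conditioned samples and 2864, 3892, 3427 and 4278 in the controls. Synaptotagmin 1, the sensor for fast synchronous release in most forebrain neurons, had its lowest value in a control and its highest in a conditioned sample (change 0.15, interval -0.17 to 0.47). Syt2 values were 31.8, 27.9, 56.0 and 62.4 in conditioned replicates 1 to 4, against 53.2, 34.9, 68.6 and 32.2 in control replicates 1 to 4. Synaptotagmin 2, the fast sensor of many inhibitory and hindbrain terminals, was low throughout, with its highest value in control replicate 3 and its lowest in conditioned replicate 2 (change -0.10, interval -0.86 to 0.66). In conditioned samples Syt7 stood at 1404, 1317, 1120.5 and 949, and in controls it stood at 1227, 1452, 881 and 1024. Synaptotagmin 7, known for slow and facilitating release, separated by replicate number and not by group (change 0.07, interval -0.32 to 0.46). For Syt4 the conditioned samples gave 1625, 1645, 2063 and 2034, and the controls gave 1272, 1558, 1712 and 2287. Synaptotagmin 4, which binds calcium poorly and is found on dense-core vesicles, separated by number the other way round, with every sample numbered 1 or 2 below every sample numbered 3 or 4. Its change was 0.13 (interval -0.25 to 0.52).
The other genes of this class had changes between 0.02 for Syt13 and 0.42 for Syt3, whose interval was -0.48 to 1.31. Syt3 averaged 112 ± 55.6 in conditioned samples and 78.9 ± 30.8 in controls (SD, n = 4 each), and Syt11, a relative that does not bind calcium, averaged 3032 ± 304 in conditioned samples and 2752 ± 296 in controls (SD, n = 4 each). Syt13 was the steadiest gene of the 43, at 1137 ± 103 in conditioned samples and 1122 ± 57.8 in controls (SD, n = 4 each). Syt5 averaged 676 ± 155 in conditioned samples and 634 ± 121 in controls (SD, n = 4 each) and Syt12 138 ± 32.1 in conditioned samples and 127 ± 27.9 in controls (SD, n = 4 each). Doc2a and Doc2b, high-affinity sensors for spontaneous and asynchronous release, also overlapped between groups. Doc2a averaged 261 ± 89.7 in conditioned samples and 227 ± 57.5 in controls (SD, n = 4 each) and Doc2b averaged 85.9 ± 27.9 in conditioned samples and 80.0 ± 37.5 in controls (SD, n = 4 each). Doc2a shares 39.4% of its exon bases with Ino80e on the opposite strand, a gene at 31.8 ± 17.5 in conditioned samples and 37.7 ± 18.5 in controls (SD, n = 4 each).

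The Rab3 proteins are small GTPases that travel on vesicles and bind RIM at the active zone. Rab3a read 1277, 1383, 1089 and 635 in the conditioned samples and 931, 1186, 692 and 1057 in the controls. Rab3a, the main brain form, had its lowest values in conditioned replicate 4 and control replicate 3, and its change was 0.15 (interval -0.37 to 0.67). Rab3b values were 279, 224, 343 and 224 in conditioned replicates 1 to 4, against 198, 278, 167 and 232 in control replicates 1 to 4. Its highest value was a conditioned sample and its 2 lowest were controls, but the groups overlapped (change 0.29, interval -0.15 to 0.73, unadjusted p = 0.175). Rab3c averaged 3026 ± 580.1 in conditioned samples and 2653 ± 396 in controls (SD, n = 4 each), a log2 change of 0.18.

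Of the 8 active zone and priming genes, 5 lay above 0 and 3 below, and none passed. RIM proteins link Rab3, calcium channels and Munc13. In conditioned samples Rims2 stood at 337, 243, 288 and 316, and in controls it stood at 269.9, 224, 269 and 237. The 3 highest values of Rims2 were conditioned samples and the 2 lowest were controls (change 0.24, interval -0.11 to 0.58, unadjusted p = 0.162). For Rims1 the conditioned samples gave 398, 358, 429 and 528, and the controls gave 451, 458, 473 and 339.6. Its lowest value was a control, and so were 3 of its 4 highest (change -0.01, interval -0.37 to 0.35). Pclo read 1371, 1244, 1879 and 2205 in the conditioned samples and 1349, 1397, 1487 and 1468 in the controls. Bsn values were 1824, 1895, 1639.7 and 1422 in conditioned replicates 1 to 4, against 1497, 1821, 1321 and 1555 in control replicates 1 to 4. Piccolo and bassoon are very large scaffolds of the same active zone matrix. For Pclo the 2 highest values and the lowest were conditioned samples, and the controls were close together (change 0.20, interval -0.19 to 0.58). For Bsn conditioned replicate 4 lay below 3 of the controls (change 0.13, interval -0.18 to 0.45). In conditioned samples Unc13a stood at 925, 979, 582 and 592, and in controls it stood at 796, 787, 532 and 538. Unc13a encodes Munc13-1, the main priming factor of excitatory forebrain terminals, and it was higher in replicates 1 and 2 than in 3 and 4 of both groups (change 0.20, interval -0.27 to 0.67). Unc13b averaged 133 ± 14.9 in conditioned samples and 135 ± 16.7 in controls (SD, n = 4 each). Unc13c, known best from cerebellar granule cells, averaged 205 ± 82.9 in conditioned samples and 253 ± 92.6 in controls (SD, n = 4 each), a change of -0.33 with an interval of -0.97 to 0.31. Rims3 averaged 46.1 ± 26.0 in conditioned samples and 36.6 ± 10.8 in controls (SD, n = 4 each), with an interval of -0.70 to 1.08.

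Vesicular glutamate transporters load the vesicles of excitatory neurons, VGLUT1 in cortical neurons and VGLUT2 mostly in thalamic and other subcortical ones. For Slc17a7 the conditioned samples gave 2912, 3162, 2699 and 1525, and the controls gave 2046, 2741, 1731 and 2847. The lowest value and the 2 highest were conditioned samples, and the change was 0.11 (interval -0.39 to 0.62). Slc17a6 read 89.8, 50.4, 180.4 and 179 in the conditioned samples and 98.8, 115, 118 and 78.9 in the controls. The 2 highest values and the lowest were conditioned samples. The change of Slc17a6 was 0.12 over all samples (interval -0.67 to 0.90). It was -0.66 between the samples numbered 1 and 2 and 0.89 between those numbered 3 and 4. Per kb of transcript the level of Slc17a7 was 836 ± 235 per kb in conditioned samples and 760.2 ± 175 in controls, and that of Slc17a6 was 30.2 ± 15.8 per kb in conditioned samples and 24.8 ± 4.37 in controls.

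Per kb of the longest GENCODE vM21 transcript, a rough correction because counts are not per isoform, Vamp2 had the highest level, 1193 ± 159.8 per kb in conditioned samples and 1112 ± 211 in controls (SD, n = 4 each, here and below). Syp was next at 889 ± 182 per kb in conditioned samples and 829 ± 189 in controls, and the mean ± SD ranges of the leading genes Syp, Slc17a7, Syt1 and Nsf overlapped in both groups. Of the 43 genes, 15 exceeded 500 per kb in conditioned samples and 4 were under 10 per kb. The levels of those 4 were 9.03 ± 1.01 per kb in conditioned samples and 9.18 ± 1.13 in controls for Unc13b, 7.09 ± 4.00 per kb in conditioned samples and 5.62 ± 1.66 in controls for Rims3, 6.47 ± 2.51 per kb in conditioned samples and 6.86 ± 2.47 in controls for Syt2 and 1.504 ± 0.665 per kb in conditioned samples and 2.72 ± 1.15 in controls for Sv2c. Within families, Vamp2 was far above Vamp1 (46.5 ± 6.38 per kb in conditioned samples and 51.9 ± 15.0 in controls), and Unc13a (75.0 ± 20.7 per kb in conditioned samples and 64.7 ± 14.4 in controls) was above Unc13c (23.3 ± 9.42 per kb in conditioned samples and 28.8 ± 10.5 in controls) and Unc13b. Among the synapsins the mean ± SD ranges of Syn2 (723 ± 94.5 per kb in conditioned samples and 661 ± 143 in controls) and Syn1 (582 ± 67.7 per kb in conditioned samples and 548 ± 113 in controls) overlapped in both groups, and Syn3 (55.9 ± 3.48 per kb in conditioned samples and 42.99 ± 9.04 in controls) was well below both. Those of Cplx1 (539 ± 121 per kb in conditioned samples and 499 ± 94.3 in controls) and Cplx2 (517 ± 93.4 per kb in conditioned samples and 514 ± 52.7 in controls) overlapped too.

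**Figure D2:**
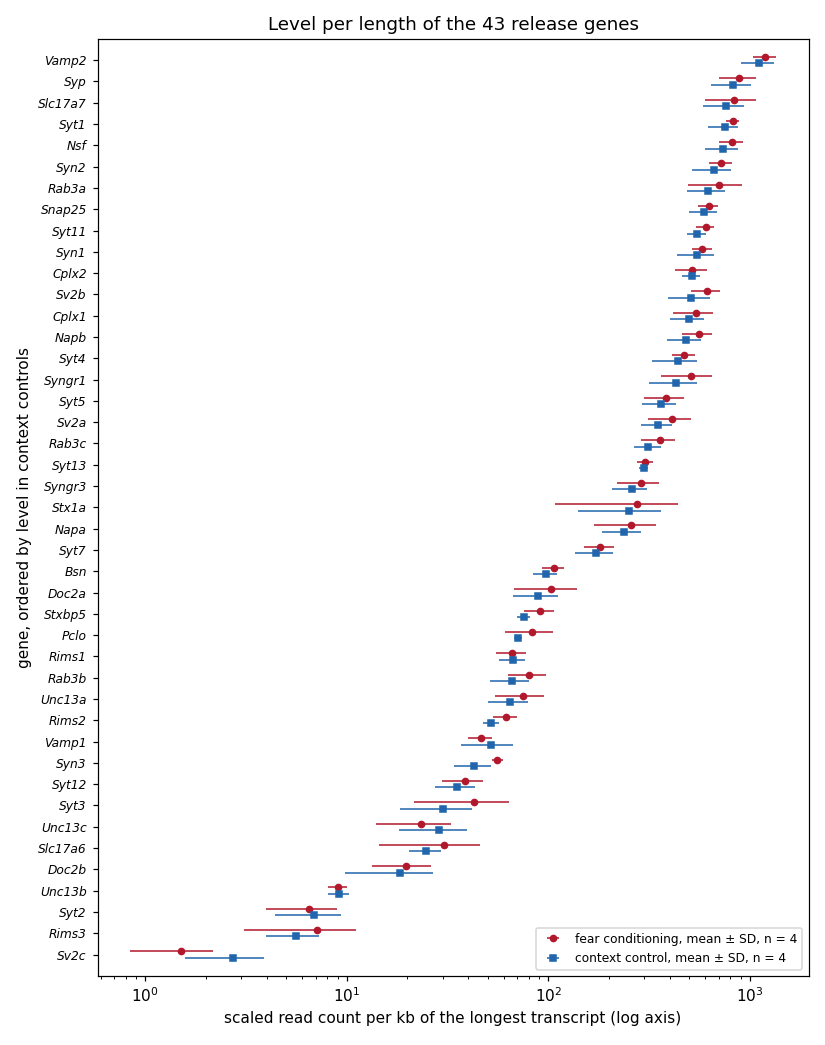
Scaled read count per kb of the longest transcript (log axis) for each gene, mean ± SD of 4 conditioned samples (circles) and 4 context controls (squares). The levels run from 1.5 per kb for Sv2c to 1193 per kb for Vamp2 in conditioned samples, and the 2 group means of each gene lie close together on this scale, with Sv2c farthest apart.

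The release genes differed in how steady they were between samples of a group. The coefficient of variation within groups had a median of 20.8% over the 43, and for 32 of them it exceeded the median of tested genes whose mean lay within 1.5 times their own. Stx1a had the highest at 53.1%, where genes of like level had a median of 17.0%. Next were Rims3 (45.0%), Syt3 (44.6%) and Sv2c (43.3%). The medians of genes of like level were 31.1% for Rims3, 23.9% for Syt3 and 40.0% for Sv2c, so Sv2c was little above its own. Syt13 (7.38%) and Syt11 (10.4%) were the steadiest.

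Some of that spread followed the replicate number, whose meaning the labels do not give, about as often as in other genes. In 10 of the 43 genes (23.3%) all 4 samples numbered 1 or 2 lay on one side of all 4 numbered 3 or 4, beside 26.0% of all tested genes. The 8 that were higher in numbers 1 and 2 (14.5% of all tested genes) were Stx1a, Cplx1, Cplx2, Napa, Syt7, Syt12, Rims3 and Unc13a, and the 2 that were lower (11.5% of all tested genes) were Syt4 and Pclo. The mean log2 difference between the number sets was 1.41 for Stx1a, 1.10 for Rims3 and 1.08 for Syt3, against -0.75 for Unc13c and -0.63 for Slc17a6. This difference went with base composition of the transcript across genes, as a description over points that share the same 8 libraries. Pearson's r with GC content was 0.69 and Spearman's rho 0.71 over the 43 genes, and r was 0.77 over 6481 genes whose mean value reached 100. Of the 15 members with at least 55% GC, 14 were higher in numbers 1 and 2, and the exception was Syn1. Of the 14 with under 47% GC, 9 were lower in numbers 1 and 2. The part of GC content in the difference between the number sets was not tested. After a GC correction, 34 of the 43 genes had a conditioned minus control change above 0, with a median of 0.10.

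**Figure D3:**
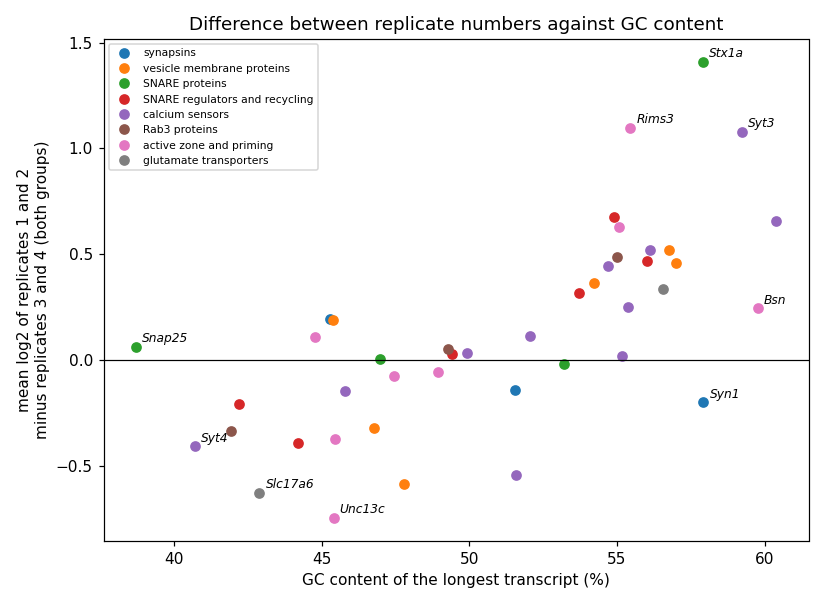
Difference in mean log2 value between the samples numbered 1 and 2 and those numbered 3 and 4, both groups together, against the GC content of the longest transcript, 1 point per gene. Transcripts of high GC content such as Stx1a (1.41) lie high, and several of low GC content, such as Unc13c (-0.75), lie low.

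Compared within numbers, 34 of the 43 genes were above 0 between the samples numbered 1 and 2, with a median change of 0.21, and 30 between those numbered 3 and 4, with a median of 0.05. Of the 43, 23 were above 0 in both comparisons, 2 were below 0 in both (Sv2c and Unc13c) and 18 differed in sign. The change of Syn3 was 0.18 between numbers 1 and 2 and 0.61 between numbers 3 and 4. That of Sv2b was 0.30 between numbers 1 and 2 and 0.24 between 3 and 4, and that of Rims2 was 0.22 and 0.26. Vamp1 had -0.42 between numbers 1 and 2 and 0.19 between 3 and 4, and Syt2 had -0.52 and 0.32. The difference between the number sets in these changes was not tested.

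**Figure D4:**
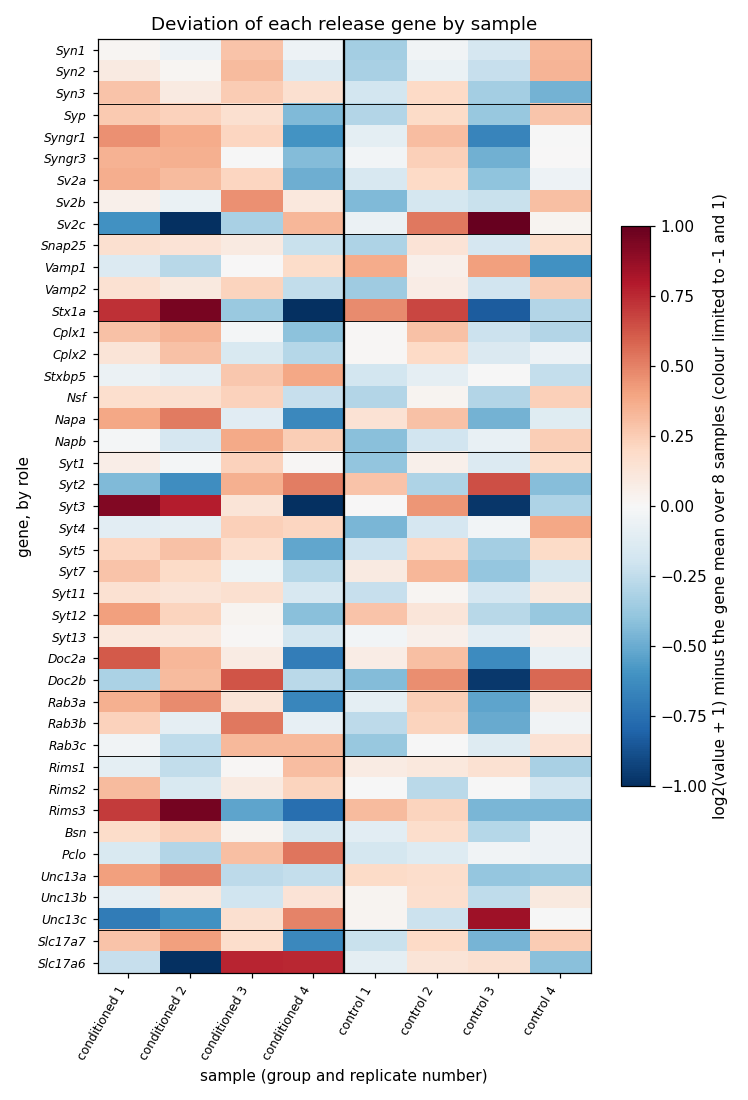
Deviation of log2(value + 1) from the mean of each gene over the 8 samples, genes by role (rows) and samples (columns, 4 conditioned samples left of 4 controls), with red above and blue below the mean. Stx1a, Rims3 and Syt3 are red in conditioned replicates 1 and 2 and blue in conditioned replicate 4, and control replicate 3 is blue in most rows.

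The summed share of reads in each sample fell into a high and a low range that did not follow the groups. The 43 genes took 1.88%, 1.85%, 1.86% and 1.55% of recovered gene reads in conditioned replicates 1 to 4, and 1.57%, 1.82%, 1.49% and 1.84% in control replicates 1 to 4. The samples with the lowest shares, conditioned replicate 4 and control replicates 1 and 3, were also those with the most recovered reads, at 3338920, 3565356 and 3069259, where the other 5 held 1992452 to 2413605. In control replicate 3 only 6 of the 43 genes lay above their own mean over all samples, and in conditioned replicate 3 there were 33. The part of depth in these shares was not tested.

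**Figure D5:**
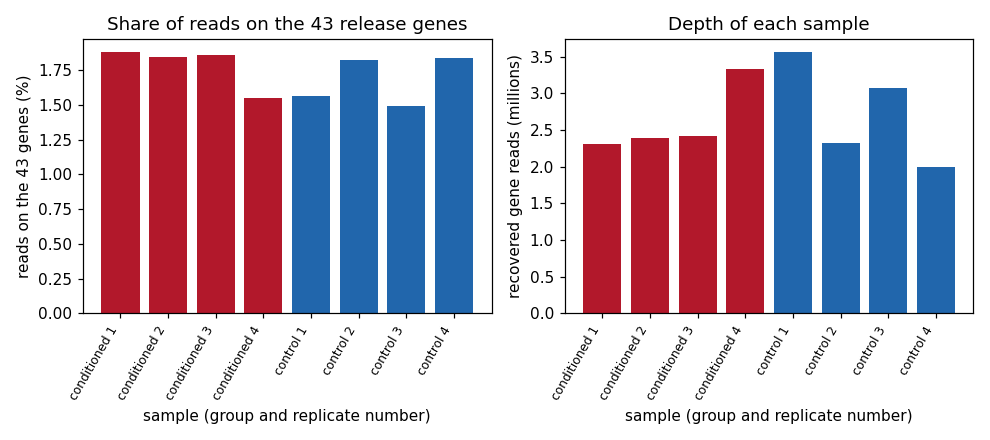
Share of recovered gene reads on the 43 genes (left, percent) and recovered gene reads (right) in 4 conditioned samples (red) and 4 controls (blue). The 3 deepest samples, conditioned replicate 4 and control replicates 1 and 3, have the 3 lowest shares, 1.49% to 1.57%.

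Markers of other cell types were summed beside the release genes, with no list tested. All 8 astrocyte, 9 oligodendrocyte, 6 oligodendrocyte precursor, 9 endothelial and mural and 6 meningeal fibroblast markers, and 7 of 8 microglial ones, had a log2 change below 0. The summed astrocyte level was 4644 to 5887 in conditioned samples and 5962 to 8123 in controls. The ranges of this astrocyte sum did not overlap. Of its markers Gja1 did not overlap either, while Gfap, Aqp4, Gjb6, Slc1a3, Aldh1l1, Sox9 and Fgfr3 each overlapped between the groups. The summed endothelial and mural level was 794 to 1149 in conditioned samples and 1121 to 1588 in controls, and these 2 ranges overlapped. The oligodendrocyte precursor sum was 609 to 873 in conditioned samples and 740.0 to 1095 in controls. The microglial sum was 1183 to 1531 in conditioned samples and 1339 to 1599 in controls. The meningeal fibroblast sum was 87.5 to 333 in conditioned samples and 199 to 579 in controls. The oligodendrocyte sum was 2898 to 4683 in conditioned samples and 2691 to 10735 in controls, with the highest in control replicate 3. No marker of these lists was at 0 in all samples.
Among neuronal lists, all 10 deep-layer markers found in the table, Syt6 among them, were above 0, with sums of 1468 to 2714 in conditioned samples and 1252 to 2023 in controls. Upper-layer markers were above 0 in 1 of 7, with sums of 2197 to 3288 in conditioned samples and 2638 to 3442 in controls. Excitatory neuron markers were above 0 in 5 of 6 (6936 to 9763 in conditioned samples, 7187 to 9096 in controls) and interneuron markers in 5 of 9 (4170.5 to 4670.4 in conditioned samples, 3875 to 4398 in controls). Markers of thalamic and other subcortical neurons were above 0 in 2 of 6, with sums of 235 to 265 in conditioned samples and 224 to 279 in controls. Striatal markers were above 0 in 4 of 7 (444 to 762 in conditioned samples, 429.7 to 855 in controls) and the 4 tested cerebellar granule cell markers in 2, with sums over the 6 in the table of 113 to 166 in conditioned samples and 128 to 204 in controls. The part of cell composition in the lean of the release genes was not tested.

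The wider pathway leaned the same way without a call. Of 95 further genes of release and vesicle recycling, 90 were tested, and 70 (77.8%) lay above 0 and 20 below, beside 51.8% above 0 among all tested genes. None passed in limma, edgeR or DESeq2, and 1 (1.11%) had an unadjusted p under 0.05 in limma, beside 2.7% of all tested genes. The counts above 0 were 9 of 12 for other SNARE and Munc18 genes, 8 of 10 for other calcium sensors and complexins, 15 of 19 for other active zone genes, 18 of 23 for other vesicle proteins and 20 of 26 for endocytosis genes. Their median changes were 0.11, 0.18, 0.09, 0.11 and 0.08 in that order. The smallest unadjusted p above 0 belonged to Syt14, a synaptotagmin relative at 15.6 ± 5.74 in conditioned samples and 5.85 ± 3.11 in controls, a change of 1.32 (unadjusted p = 0.0141), Ppfia4, a liprin-alpha scaffold, at 135 ± 29.2 in conditioned samples and 98.4 ± 32.8 in controls, a change of 0.48, and Rims4 at 36.4 ± 19.4 in conditioned samples and 19.4 ± 9.97 in controls, a change of 0.85. Below 0 they belonged to Vamp3, the broadly expressed cellubrevin, at 135 ± 48.6 in conditioned samples and 190.4 ± 73.6 in controls, a change of -0.49, Snap23, a SNAP-25 relative outside neurons as well, at 42.3 ± 14.0 in conditioned samples and 55.1 ± 11.8 in controls, a change of -0.42, and Esyt1, an extended synaptotagmin of endoplasmic reticulum contacts, at 25.6 ± 4.82 in conditioned samples and 32.4 ± 0.847 in controls, a change of -0.34. Esyt1 was the 1 gene of the 90 (1.11%) in which every conditioned sample lay on one side of every control, beside 1.92% of all tested genes, and its unadjusted p was 0.241. In limma the unadjusted p was 0.0876 for Ppfia4, 0.111 for Rims4 (interval -0.22 to 1.93), 0.104 for Vamp3 and 0.202 for Snap23. The change of Syt14 rested on few reads. It was 2.69 in control replicate 2, where 1 read counts as 1.34, and 4.83 in control replicate 4, where 1 read counts as 1.61.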

How the data were processed

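Total RNA of mouse medial prefrontal cortex was sequenced in 8 samples, grouped by their titles into 4 contextual fear conditioning and 4 context control samples. TopHat and HTSeq without versions, and the human build hg19, are named per the submitters' processing notes, so no coordinates of the files are printed. The deposited table is named FPKM, but in each column 100% of values above 0 were whole multiples of 1 step (within 0.01 of a read), so the deposited values are treated as a scaled count signal. How the authors set the factor per sample is not given in the sources used here. Steps ran from 0.831 to 1.61 and recovered reads from 1992452 to 3565356, and precision is given as confidence intervals.

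Values were transformed to log2(value + 1), and the 14704 genes that reached a mean value of 1 were compared in limma 3.58.1 (R 4.3.3, lmFit and trended eBayes). Tests were two-sided, and a gene was called where its Benjamini-Hochberg adjusted p was under 0.05. The plan assumed FPKM values, and limma was kept for the scaled counts. edgeR 4.0.16 (TMM, quasi-likelihood) and DESeq2 1.42.0 on recovered reads were alternatives, with quantile normalization, a pseudocount of 0.1, no filter, a minimum mean of 10, array weights, a replicate block and each sample left out. GC correction (lowess, span 0.3, fitted where the mean log2 value exceeded 5), alone and with the replicate block, and a term for replicate numbers were added after seeing the data. The limma steps were tested on simulated counts with known changes. Those counts held no difference by replicate number or GC content, so that test cannot show how the steps perform where such differences exist. GC content and length came from the longest GENCODE vM21 transcript, which 98.8% of tested genes had.

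Deviations from the group means were correlated between conditioned and control samples over the 6532 genes whose mean reached 100. Same-numbered samples had r = 0.56, 0.60, 0.32 and 0.19 for numbers 1 to 4, all above 0.1. The labels do not say that the numbers pair the samples. The main comparison and its intervals were unpaired, and pairing by number entered only through the replicate block alternatives. Other pairs within the sets 1 and 2 or 3 and 4 were of like size or higher, so the correlation followed the sets and not single numbers. For conditioned 1 with control 2 r was 0.73, and for conditioned 2 with control 1 it was 0.56. It was 0.41 for conditioned 3 with control 4 and 0.80 for conditioned 4 with control 3. Between the sets r ran from -0.74 to -0.25. Deviations from a group mean cancel within the group, so positive r within sets forces negative r between them. Those negative values are therefore no separate evidence for the sets, which were themselves seen in these data.

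The genes and lists were chosen with earlier results of these data known, so lists are described by counts and medians only. Values per sample are given for 22 genes listed by name in the plan and for the 6 with the smallest p, and the other genes have group means. Of the wider pathway, the 3 smallest p in each direction are named. Promoter windows were cut to the 250 bases before the start. Spreadsheet dates stood in place of 25 deposited symbols, none of them among the 43 genes.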

Additional observations from a re-analysis of the deposited data

Results flagged for a closer look

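In 4 of the 86 sets of 4 values (43 genes in 2 groups), 1 sample stood apart from the other 3 by a gap above Dixon's 95% critical value for 4 values (gap over range), and chance alone gives such a gap in about 5% of sets. Nsf was 2464 in conditioned replicate 4, against 3237 to 3382 in the other conditioned samples. Syt11 was 2578 in the same sample, against 3138 to 3208 in the other conditioned samples. Rims1 was 339.6 in control replicate 4, against 451 to 473 in the other controls, and Unc13c was 390.2 in control replicate 3, against 187 to 220.1 in the other controls.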

How the results depend on the processing

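No gene of the 43 was called under any of the 19 alternatives, and the smallest adjusted p of any of them under any setting was 0.783. Over all genes the count called was 0 except without conditioned replicate 4 (leave-one-out range 0 to 1, smallest adjusted p 0.00646), and no release gene was the 1 called. The replicate block changed no call: 0 genes were called, with 594 at an unadjusted p under 0.05 beside 397 without the block. That count was 823 with array weights, 785 with GC correction, 843 with GC correction and the block, 870 with replicate numbers as a term, and 251 to 802 leaving out 1 sample at a time. Among the 43 genes it was 1 in the main fit and 0 with quantile normalization, edgeR and DESeq2. It was 2 under array weights and GC correction, 3 with replicate numbers as a term and 0 to 5 leaving out 1 sample at a time. The median change stayed above 0 throughout, at 0.03 with quantile normalization, 0.21 with array weights, 0.10 with GC correction and 0.06 to 0.21 leaving out 1 sample at a time. Of 817 values over 43 genes and 19 alternatives, 760 kept their sign and 57, in 20 genes, did not. Dropping or raising the filter, the replicate block and the term for replicate numbers left every log2 change at its main value. Their signs could not differ, so the 760 overstates how steady the signs were. Adding the block to the GC correction likewise repeated the GC-corrected changes. The cause of the sign reversals was not tested. With quantile normalization the changes were -0.0017 for Napa, -0.038 for Snap25, -0.0021 for Syn1, -0.059 for Syt13 and -0.013 for Syt7. Stx1a was at 0.11 in edgeR, 0.12 in DESeq2 and 0.14 with array weights, which gave 0.052 for Cplx2 and -0.10 for Slc17a6. Syt13 was at -0.011 with GC correction, with and without the replicate block. Leaving out 1 sample at a time, the lowest and highest changes were -0.10 to 0.088 for Cplx2, -0.016 to 0.42 for Doc2a, -0.11 to 0.40 for Doc2b, -0.087 to 0.30 for Napa, -0.0019 to 0.39 for Rab3a, -0.12 to 0.071 for Rims1, -0.098 to 0.47 for Rims3, -0.12 to 0.49 for Slc17a6, -0.021 to 0.35 for Slc17a7, -0.0081 to 0.17 for Snap25, -0.33 to 0.43 for Stx1a, -0.0021 to 0.30 for Syngr3, -0.0054 to 0.27 for Syp, -0.017 to 0.0797 for Syt13, -0.29 to 0.0999 for Syt2, -0.024 to 0.26 for Syt5, -0.045 to 0.19 for Syt7, -0.11 to 0.042 for Unc13b and -0.34 to 0.0028 for Vamp1. Among the 43 genes, sequencing depth limits Sv2c most, with 6 reads in its lowest sample.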
